A study of Mus musculus with 4 samples.

Results

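Tbx5, Tbx4 and Pitx1 are transcription factor genes that set limb identity. Tbx5 is used in the forelimb, and Tbx4 and Pitx1 are used in the hindlimb. A further 5 genes belong with them by position or role and complete the set of 8 genes described here, out of 21911 protein-coding genes on the assembled chromosomes. Tbx2 and Tbx3 are the T-box repressor genes that neighbour Tbx4 and Tbx5. H2afy, which encodes the histone variant macroH2A1, and Neurog1, a proneural factor gene, share a gene neighbourhood with Pitx1. Hand2 encodes a factor of the posterior early limb bud that acts upstream of Shh. The genes were chosen by name. For each gene, the peaks of CTCF and of the cohesin subunit RAD21 within 5 kb of the gene body were collected, with the nearest site on each side up to 500 kb and every site in the Tbx3-Tbx5, Tbx2-Tbx4 and Pitx1-Neurog1 intervals.

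CTCF is a zinc finger protein that binds a motif with a direction, and cohesin is a ring complex that extrudes chromatin loops and halts most often at CTCF bound to a motif that points into the loop. Pairs of CTCF sites whose motifs point toward each other, called convergent, are therefore common at the ends of chromatin domains. Tbx3-Tbx5 and Tbx2-Tbx4 are paralogous gene pairs that arose by duplication. Pitx1 is controlled in the hindlimb from far upstream, and an enhancer of Pitx1 lies close to Neurog1. In human Liebenberg syndrome, deletions that include H2AFY bring enhancers closer to PITX1 and give the arm features of a leg.

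The TgN(38-40) group consisted of whole limbs of E12.5 embryos that were TgN(38-40)/Wt and, on the same strain B6CBAF1 background, del(CS38-40)-/-. These embryos carried 1 chromosome 10 with an insertion of the CTCF-containing region CS38-40, and both chromosomes 2 lacked the native copy of that region. CTCF and RAD21 were mapped in them by ChIPmentation, a chromatin immunoprecipitation with tagmentation on the beads, with 2 biological replicates per antibody. The wild-type group was a single RAD21 ChIP-seq library of whole limbs of the same stage, made in an earlier study with another protocol and with no replicate, and its strain was not given in the sources used here. Wild-type CTCF was not analysed here. The 8 genes lie on chromosomes 5, 8, 11 and 13, apart from the inserted and the deleted region. Forelimbs and hindlimbs were mixed in every library, so a peak cannot be assigned to the limb type that uses Tbx5 or to the one that uses Tbx4 and Pitx1.

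The peak lists of TgN(38-40) limbs held 23829 and 26264 CTCF peaks in replicates 1 and 2 and 4102 and 14787 RAD21 peaks, and the wild-type list held 20874 RAD21 peaks. RAD21 replicate 1 was thus the shortest list, and a site absent from it was often present in replicate 2: of 28222 autosomal CTCF sites, 13.7% overlapped a RAD21 peak of replicate 1 and 46.8% one of replicate 2. Fold is the enrichment over background given by the peak caller. Fold was compared only within a list, as a rank share: the rank of a peak by fold as a percentage of its list, so that a small share means a strong peak. The read numbers behind the peaks are unknown, and peak lists with 2 replicates and an unreplicated wild-type list allowed no test, so counts are given beside the same count over all genes or all sites. CTCF peaks of both replicates that overlapped were merged into sites, numbered along the chromosome in each locus.

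Around the 8 genes, 37 CTCF sites were collected, of which 27 were called in both replicates, 2 in replicate 1 alone and 8 in replicate 2 alone. Over all autosomal CTCF sites 73.4% were called in both. RAD21 of TgN(38-40) limbs overlapped 15 of the 37 sites, and RAD21 of wild-type limbs overlapped 19, beside 47.1% and 58.9% of all autosomal CTCF sites. All 15 sites with RAD21 in TgN(38-40) limbs also had it in the wild-type list, 4 sites had it in the wild-type list alone, and 18 had none in either. The 4 were Tbx3-Tbx5 site 3, Tbx2-Tbx4 site 3 and Pitx1-Neurog1 sites 8 and 11. The first was overlapped only at its edge by the wild-type peak of neighbouring site 2. The others had weak wild-type peaks, with rank shares of 81.45%, 82.67% and 90.02%. The count of 19 fell to 17 with the wild-type list shortened to the length of RAD21 replicate 2. A CTCF motif was found within 50 bp of the summit at 26 of the 37 sites, 11 on the plus strand and 15 on the minus strand, beside 61.5% of autosomal sites.

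The motifs of the CTCF sites that flank the genes most closely are shown first, because their direction is what the account of each gene turns on. Each sequence is read 5′ to 3′ on the strand of the motif from the mm10 reference, with the 19 bases of the motif in capitals and 5 neighbouring bases on each side in lower case.
Tbx2 start side, site 1 of the Tbx2-Tbx4 locus, minus strand, chr11:85823381-85823399: ccatcCTAGCACTAGGGGGCGCTGacagc
Tbx2 end side, site 2, minus strand, chr11:85842181-85842199: cagagTGGCCAGCAGGGGGAGCCCgggcc
Tbx4 start side, site 6, plus strand, chr11:85864540-85864558: agtagAGGCCAGAAGAGGGCGTCTgaggc
Tbx4 end side, site 7, minus strand, chr11:85972548-85972566: ccttcTCTCCAGTAGGGGGCCTCGgtgcc
Tbx3 start side, site 1 of the Tbx3-Tbx5 locus, minus strand, chr5:119266743-119266761: cagagAGGCCAGAAGAGGGCGTCGgatcc
Tbx3 end side, site 4, minus strand, chr5:119691320-119691338: cggtgCAACCAGCAGATGGCAGCAaagga
Tbx5 end side, site 14, minus strand, chr5:120088735-120088753: atgttTTGCCACAAGGGGGCGCCCgcgct
Pitx1 end side, site 1 of the Pitx1-Neurog1 locus, plus strand, chr13:55790749-55790767: cgtggAGGCCAGAAGAGGGCATCAgagcc
Pitx1 start side, site 2, minus strand, chr13:55843909-55843927: tgaggTGGCCAGAAGAGGGCACCAgatgt
Neurog1 start side, site 14, minus strand, chr13:56266633-56266651: ctattTAACCAACAGGTGGCGCTGctttc
Hand2 end side, site 2 of the Hand2 locus, plus strand, chr8:57353762-57353780: tctttAAAAAGCCAGATGGCGCCAtctct

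The nearest sites on the start side of Tbx5, on both sides of H2afy, on the end side of Neurog1 and on the start side of Hand2 held no motif above the threshold within 50 bp of the summit that defined them. In 4 of the printed motifs the same 12 bases, CCAGAAGAGGGC, stand at the centre: at the nearest sites of Tbx3 and Tbx4 on their start sides and of Pitx1 on both sides. These 4 sites are taken up again after the genes.

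Tbx2, Tbx3 and H2afy had a CTCF peak within 5 kb of the gene body, which is 3 of 8 genes, beside 51.9% of all protein-coding genes. Within 10 kb the count was 6 of 8, a window for which the share over all genes was not computed. The same 3 genes had a RAD21 peak in TgN(38-40) limbs, beside 32.7% of all genes, and in wild-type limbs, beside 41.1%. Tbx4, Tbx5, Pitx1, Neurog1 and Hand2, which include all 3 limb identity genes, had no peak of any of the 5 lists within 5 kb. Among 13 other limb transcription factors and signals taken as a fixed list for comparison, 9 had a CTCF peak within 5 kb, 7 had RAD21 in TgN(38-40) limbs and 9 had RAD21 in wild-type limbs. Of those 9 with CTCF, Lmx1b, a dorsal limb determinant, had 5 sites with a highest fold of 7.98 and 13.1 in the replicates. Tbx15, Tbx18, Isl1, Sall4, Meis1, Irx3 and Irx5 also had CTCF within 5 kb.

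**Figure D1:**
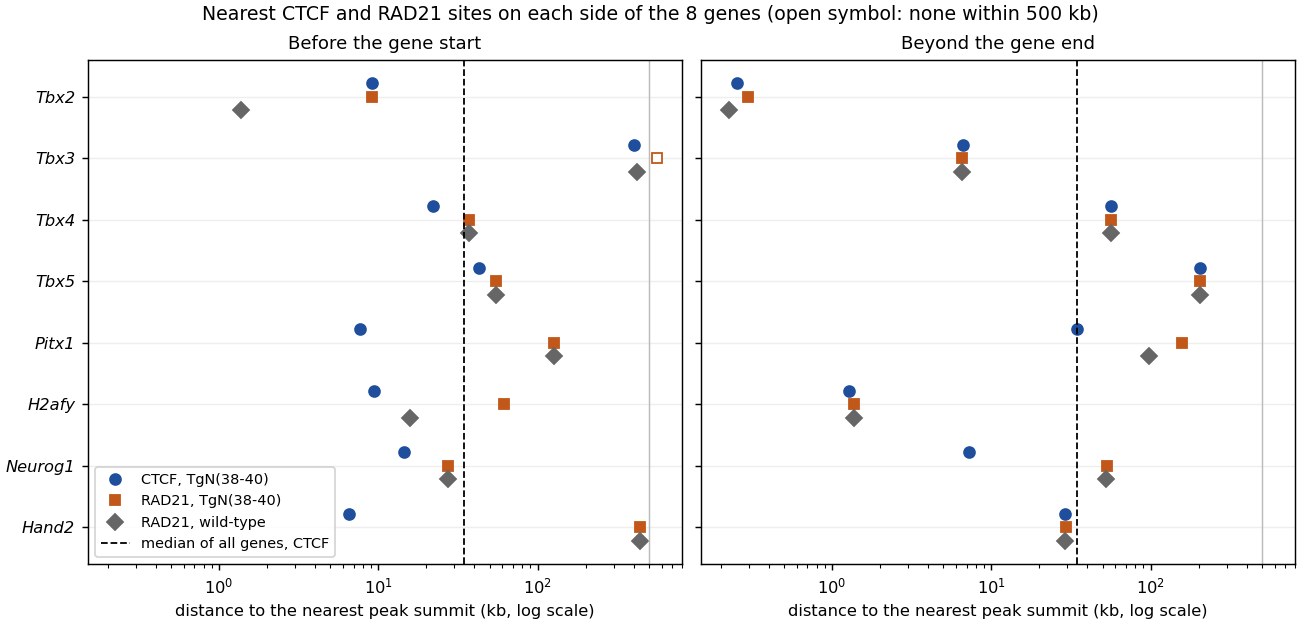
Distance in kb (log scale) from each of the 8 gene bodies to the nearest CTCF site and to the nearest RAD21 site of TgN(38-40) and of wild-type limbs, before the gene start (left) and beyond the gene end (right). The dashed line is the median CTCF distance over all protein-coding genes, 34397 bp, the grey line is 500 kb, and an open symbol means that no site was found up to that limit. CTCF lay closest at Tbx2 and farthest upstream of Tbx3, where the site that straddles the gene start is not counted as flanking.

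Tbx2 had its CTCF sites packed behind the gene. The sites numbered 2, 3 and 4 in the Tbx2-Tbx4 locus had their summits 253, 1472 and 2855 bp beyond the end of Tbx2 (chr11:85832551-85841948, plus strand, ENSMUSG00000000093.6). CTCF fold at site 2 was 5.85 in replicate 1 and 8.20 in replicate 2, and at site 3 it was 4.76 and 8.65. At site 4 it was 3.47 and 5.30, with rank shares of 99.7% and 86.4% by fold, although ranked by −log10 p its peak in replicate 2 stood at 15789 of 26264 in place of 22684. Site 4 had the lowest CTCF fold of the cluster in both replicates and the highest RAD21 fold in replicate 2 of TgN(38-40) limbs. It was the single site of the cluster with a RAD21 peak in both replicates of TgN(38-40) limbs, with fold 5.14 and 7.83, and its fold in the wild-type list, 6.66, was the highest of the cluster too. Site 2 had RAD21 in replicate 2 with fold 6.23 and in the wild-type list with fold 3.88, and site 3 had no RAD21 peak in TgN(38-40) limbs and a fold of 2.99 in the wild-type list.

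The motif of site 2 pointed back across Tbx2, on the minus strand, and those of sites 3, 4 and 5 pointed away from it toward Tbx4, on the plus strand. On the start side of Tbx2, site 1 lay 9158 bp upstream in introns of Bcas3 and of the transcript 2610027K06Rik. It had CTCF fold 7.43 and 11.4, RAD21 fold 7.23 in replicate 2 of TgN(38-40) limbs and 8.03 in the wild-type list, and a minus-strand motif, so the motifs on both sides of Tbx2 pointed the same way. The wild-type list also held a RAD21 peak of fold 2.83 at chr11:85830991-85831283, 1377 bp before the start of Tbx2, that overlapped no CTCF site and had no RAD21 peak in TgN(38-40) limbs. It ranked 17990 of 20874, among the weakest peaks of its list. The stretch without CTCF around Tbx2 was 18809 bp long, and 96.6% of the 13569 genes with no CTCF site in their body had a stretch at least as long.

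Tbx4, the hindlimb T-box gene (chr11:85886422-85916097, plus strand, ENSMUSG00000000094.12), lay in a longer stretch free of CTCF, 108035 bp, beside a median of 120000 bp over those genes. Its nearest CTCF site upstream was site 6 at 21884 bp, with fold 8.53 in replicate 1 and 4.73 in replicate 2. These were rank shares of 17.3% and 94.4%, so the replicates placed the same site near opposite ends of their lists. No list of RAD21 held a peak there. Downstream, site 7 lay 56475 bp beyond the end of Tbx4 with CTCF fold 9.14 and 11.1 and with RAD21 in all 3 lists, fold 6.76 and 9.11 in TgN(38-40) limbs and 7.86 in wild-type limbs. Sites 6 and 7 had convergent motifs, although that of site 6 was found near the summit of replicate 1 and none near that of replicate 2.

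The nearest CTCF site upstream of Tbx4 that also had RAD21 was site 5, 37128 bp before the gene start in an intron of Gm11444. Its motif is shown because with site 7 it encloses Tbx4.
Tbx4 start side with RAD21, site 5, plus strand, chr11:85849267-85849285: ctttcCGACCACTAGGTGGGGATCtaggg
Site 5 had CTCF fold 4.93 and 7.47, and RAD21 fold 7.62 in replicate 2 of TgN(38-40) limbs and 7.00 in wild-type limbs. Sites 5 and 7 were also convergent, 123278 bp apart. The Tbx2-Tbx4 interval, 83547 bp from the start of Tbx2 to the end of Tbx4, held 5 CTCF sites, all between the genes and all called in both replicates. That is 59.8 sites per Mb beside 11.5 over the autosomes. The density was confined to this short interval: within 500 kb of the gene body Tbx2 had 17 CTCF sites and Tbx4 had 16. The median over all protein-coding genes was 18. RAD21 overlapped 3 of the 5 sites of the interval in TgN(38-40) limbs and 4 in wild-type limbs. All 5 had a motif, 4 on the plus strand and 1 on the minus strand.

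**Figure D2:**
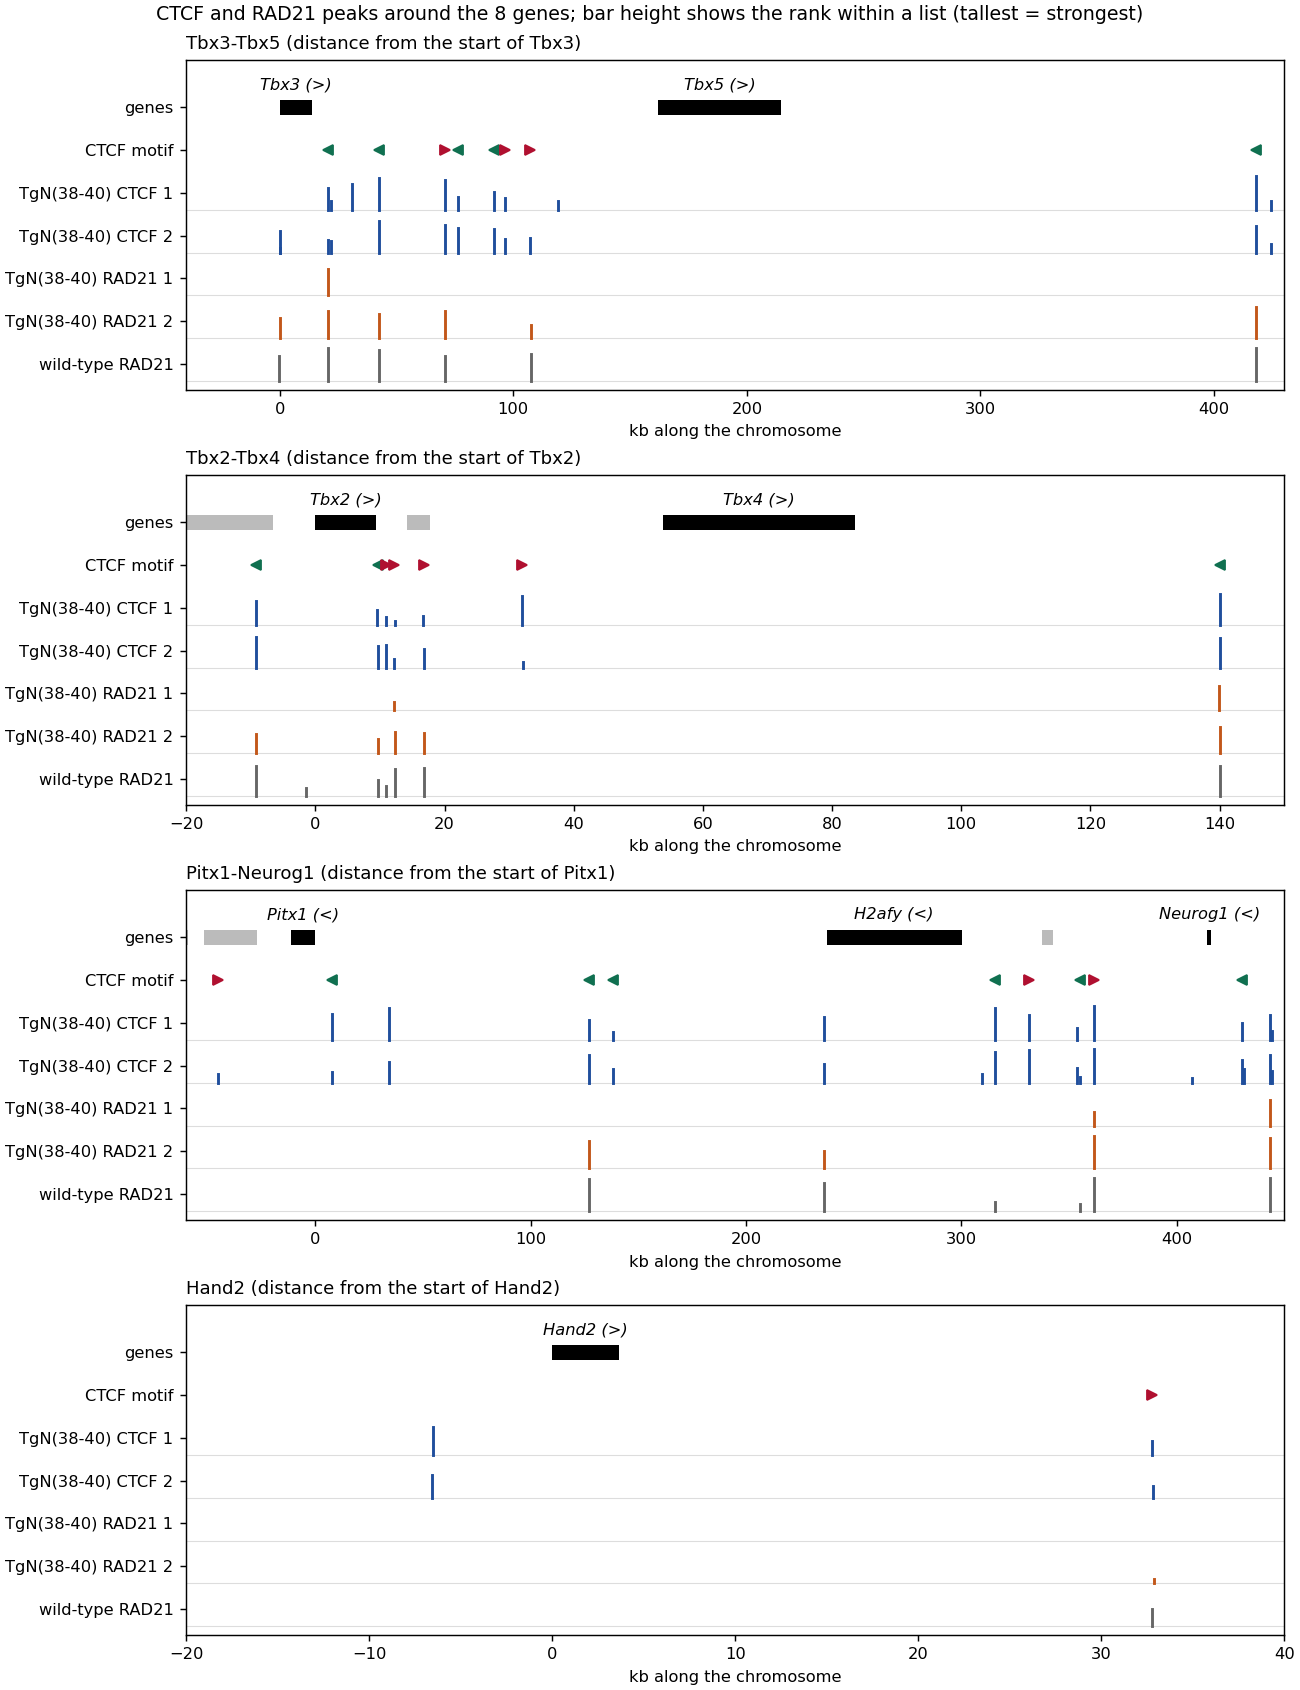
Peaks along the 4 loci, in kb from the start of Tbx3, Tbx2, Pitx1 or Hand2 along the chromosome. Rows show the 8 genes in black and other protein-coding genes in grey, the strand of the CTCF motif as an arrowhead, and 1 row per peak list with TgN(38-40) lists above the wild-type one, where a taller bar means a better rank by fold within that list. The 5 sites between Tbx2 and Tbx4 sit mostly behind Tbx2, and of the 8 gene bodies only that of Tbx3 carries a peak. The CTCF site 403898 bp before Tbx3 and the RAD21 site 436566 bp before Hand2 fall outside the drawn windows.

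Tbx3 (chr5:119670669-119684724, plus strand, ENSMUSG00000018604.18) was the single gene of the 8 with CTCF and RAD21 at its start. Sites 2 and 3 of the Tbx3-Tbx5 locus had summits 14 bp before and 253 bp after the annotated start, and site 3 fell in the untranslated part of an exon of Tbx3. Both also lay in an intron of the antisense transcript Tbx3os1. CTCF was called there in replicate 2 alone, with fold 8.15 at site 2 and 4.01 at site 3, and neither site held a motif near its CTCF summit. RAD21 fold was 7.55 at site 2 in replicate 2 of TgN(38-40) limbs. A single wild-type peak of fold 6.08 covered site 2 and overlapped only the near edge of site 3. Replicate 1 of either antibody had no peak within 5 kb of Tbx3.

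Upstream of Tbx3, CTCF was sparse. The nearest site outside the gene was site 1, 403898 bp away, and 9.28% of all gene sides had a distance at least as long. It was called in replicate 2 alone, with fold 5.64, and carried no RAD21. Without replicate 2 the nearest site lay 455544 bp away. In the lists on the genome that includes the insertion, for which reads in duplicated sequences were also kept, it lay 96531 bp away. No RAD21 peak of TgN(38-40) limbs was found within 500 kb on this side, and the wild-type list had a peak of fold 2.80 at 418834 bp. Downstream, site 4 lay 6612 bp beyond the end of Tbx3 with CTCF fold 6.91 and 6.11. RAD21 had a smaller rank share there than CTCF, each within its own list, and these lists differ in length. Its fold was 6.96 and 9.28 in the replicates of TgN(38-40) limbs, with rank shares of 27.2% and 24.9%. The rank shares of CTCF in the same limbs were 42.2% and 73.2%. In wild-type limbs RAD21 fold was 9.97, rank 647 of 20874.

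The Tbx3-Tbx5 interval, 214551 bp from the start of Tbx3 to the end of Tbx5, held 12 CTCF sites, 10 of them in the 147943 bp between the gene bodies, which is 55.9 sites per Mb over the interval. Within 500 kb of the gene body Tbx3 had 23 CTCF sites and Tbx5 had 25, beside a median of 18 over all protein-coding genes. RAD21 overlapped 5 of the 12 sites of the interval in TgN(38-40) limbs and 6 in wild-type limbs. The RAD21 sites themselves numbered 5 in either group, as the wild-type peak at the start of Tbx3 overlapped both site 2 and site 3. The strongest in CTCF was site 7, 28311 bp beyond the end of Tbx3, with CTCF fold 9.78 and 12.4, RAD21 fold 8.55 in replicate 2 of TgN(38-40) limbs and 8.55 in wild-type limbs, and a minus-strand motif. Site 8, 56590 bp beyond the end of Tbx3, followed with CTCF fold 8.79 and 10.3, RAD21 fold 9.43 and 6.10 in those lists, and a plus-strand motif. Their motifs pointed away from each other, that of site 7 toward Tbx3 and that of site 8 toward Tbx5. Among the 7 motifs of the interval 3 were on the plus strand and 4 on the minus strand, a count that depends on the summit searched. At site 11 the plus-strand motif, near the summit of replicate 2, scored 7.31 in the motif search, close to the threshold of 6.90. A minus-strand motif near the summit of replicate 1 of site 11 scored 18.37 and was not counted. Neither was a minus-strand motif near the summit of replicate 1 at site 5.

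Tbx5, the forelimb T-box gene (chr5:119832668-119885219, plus strand, ENSMUSG00000018263.11), had the longest stretch without CTCF, 298741 bp, of the 7 genes with no CTCF site in their body. Of the 13569 genes with no CTCF site in their body, 28.1% had a stretch at least as long. On its start side the nearest site was site 13 at 42646 bp, called in replicate 1 alone with fold 4.89, with no motif and no RAD21. On its end side site 14 lay 203543 bp away. It had CTCF fold 10.8 and 9.82, RAD21 fold 11.5 in replicate 2 of TgN(38-40) limbs and 9.61 in wild-type limbs, and its rank shares were 2.89%, 25.2%, 8.39% and 4.22% in those 4 lists.

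The nearest site with RAD21 upstream of Tbx5 was site 12, 54617 bp before the gene start, whose motif faces that of site 14 across the gene.
Tbx5 start side with RAD21, site 12, plus strand, chr5:119778030-119778048: tcagtTCTCCAGGAGATGGCAGTCaaggg
Site 12 had CTCF in replicate 2 alone with fold 6.55, RAD21 fold 6.15 in replicate 2 of TgN(38-40) limbs and 6.83 in wild-type limbs. Sites 12 and 14 were convergent and 310711 bp apart, with Tbx5 between them. When only CTCF sites with RAD21 of TgN(38-40) limbs were counted, Tbx4 and Tbx5 were the 2 of 8 genes whose nearest sites were convergent, beside 11.4% of all protein-coding genes. This count was added after the values were seen. When all CTCF sites were counted, the 2 genes were Tbx4 and Pitx1, beside 9.8% of all genes.

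Pitx1 (chr13:55825051-55836192, minus strand, ENSMUSG00000021506.7), the homeobox gene that stands above Tbx4 in the hindlimb, had CTCF nearer than RAD21 on both sides. Distances to RAD21 were not computed over all genes. Site 2 of the Pitx1-Neurog1 locus lay 7698 bp before the start of Pitx1 in an intron of the antisense transcript Gm47071, with CTCF fold 7.77 and 5.69. Site 1 lay 34277 bp beyond the gene end in an intron of Catsper3, with fold 5.41 in replicate 2 alone. Their motifs were convergent, and no RAD21 peak of any list overlapped either. Site 3, 34048 bp before the gene start, had CTCF fold 9.51 and 8.12, no motif and no RAD21. The first RAD21 peak of TgN(38-40) limbs before the gene start was 127291 bp away, at site 4, with fold 9.49 in replicate 2 and 9.16 in wild-type limbs at CTCF fold 6.61 and 10.3. Beyond the gene end the first was 156203 bp away in an intron of Ddx46 with fold 5.54 in TgN(38-40) limbs, while the wild-type list had a nearer one of fold 3.08 at 97005 bp in an intron of Pcbd2.

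H2afy (chr13:56073619-56136361, minus strand, ENSMUSG00000015937.15) had a CTCF site with RAD21 directly behind it. Site 6 lay 1278 bp beyond the gene end with CTCF fold 7.17 and 7.56 and RAD21 fold 6.97 in replicate 2 of TgN(38-40) limbs and 7.15 in wild-type limbs. No motif lay within 50 bp of the summit of replicate 1, which defined the site, whereas a minus-strand motif lay within 50 bp of the summits of CTCF replicate 2 and of both RAD21 peaks. Upstream of H2afy, site 7 at 9452 bp was called in replicate 2 alone with fold 5.28, without motif or RAD21. Site 8 followed at 15679 bp and was strong in CTCF, with fold 9.95 and 11.6 and rank shares of 6.06% and 11.9%, but had no RAD21 peak in TgN(38-40) limbs and a weak one of fold 2.94 in wild-type limbs.

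Neurog1 (chr13:56250478-56252163, minus strand, ENSMUSG00000048904.5) had, 7224 bp beyond its end, the weakest of the 14 CTCF sites of the locus by fold in replicate 2, site 13, with fold 4.07, no peak in replicate 1, no motif and no RAD21. Site 14, 14488 bp before its start, had fold 6.12 and 8.63, a minus-strand motif and no RAD21. The nearest CTCF sites with RAD21 were stronger. Before the gene start, RAD21 peaked 27522 bp away with fold 6.82 and 10.4 in TgN(38-40) limbs and 10.2 in wild-type limbs, at CTCF fold 7.64 and 10.2. Beyond the gene end, 52787 bp away, stood site 12.

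Site 12 of the Pitx1-Neurog1 locus, at chr13:56197460-56197947 in intergenic sequence, is shown because it had the strongest CTCF peak of all 37 sites in both replicates.
Pitx1-Neurog1 site 12, plus strand, chr13:56197687-56197705: cagaaCTGCCAGTAGATGGCGCGCtaacc
Its CTCF fold was 11.2, rank 468 of 23829, in replicate 1 and 15.4, rank 311 of 26264, in replicate 2. RAD21 fold was 5.59 and 11.9 in the replicates of TgN(38-40) limbs and 10.0 in wild-type limbs, where it ranked 588 of 20874. It lay 361499 bp before the start of Pitx1 and 61330 bp before the start of H2afy, and its motif pointed toward Neurog1 and away from both. Site 9, by contrast, had CTCF fold 7.53 and 13.4, rank 1155 of 26264 in replicate 2, with no RAD21 peak in any list. It fell in an exon of the small nucleolar RNA gene Gm25148, with a plus-strand motif.

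The Pitx1-Neurog1 interval, 427113 bp long, held 12 CTCF sites, all of them between genes Pitx1 and Neurog1 and none in the body of H2afy. This is 28.1 sites per Mb, lower than in the T-box intervals and above the 11.5 per Mb of the autosomes. RAD21 overlapped 3 of the 12 in TgN(38-40) limbs, sites 4, 6 and 12, and 5 in wild-type limbs, which added the weak peaks at sites 8 and 11. Among its 7 motifs, 2 were on the plus strand and 5 on the minus strand, so that most pointed toward Pitx1. A minus-strand motif at site 6 and a plus-strand motif at site 10 lay near the summit of the other replicate and were not counted. Within 500 kb of the gene body Pitx1 had 36 CTCF sites, H2afy 35 and Neurog1 31, beside a median of 18 over all protein-coding genes, and 90.0% of genes had as few as Pitx1 or fewer.

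Hand2 (chr8:57320983-57324633, plus strand, ENSMUSG00000038193.4) was the gene of the 8 with the fewest CTCF sites within 500 kb, 12. Of all protein-coding genes, 32.7% had as few or fewer. Site 1 of the locus lay 6530 bp before the start of Hand2, in an exon of the transcript Hand2os1, with CTCF fold 8.22 and 8.68, no motif near either summit and no RAD21. Site 2 lay 29134 bp beyond its end in an intron of 5033428I22Rik, with fold 5.76 and 5.87 and a weak plus-strand motif. That motif scored 7.73 beside a threshold of 6.90. No motif passed near the summits of replicate 2 of CTCF or of RAD21. RAD21 at site 2 was near the detection limit in TgN(38-40) limbs, with fold 4.18 and rank 14630 of 14787 in replicate 2, and had fold 4.15 in wild-type limbs. On the start side the first RAD21 peak lay 436566 bp away, with fold 8.21 in replicate 2 of TgN(38-40) limbs and 5.18 in wild-type limbs. Of the other 7 genes, only Tbx3 had no nearer RAD21 peak of TgN(38-40) limbs on one side.

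**Figure D3:**
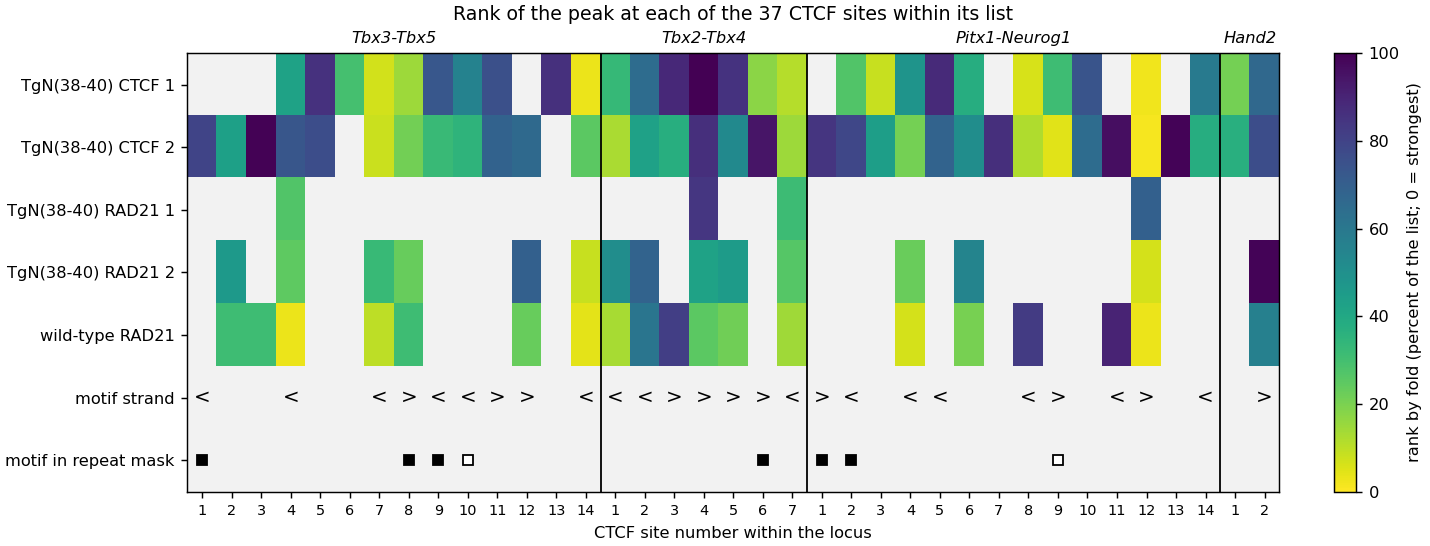
Rank by fold, as a percentage of each list (0 is the strongest peak), of the peaks at the 37 CTCF sites in the 4 lists of TgN(38-40) limbs and, below them, the wild-type list, with grey where a list had no peak. Arrows give the motif strand, filled squares a motif wholly in repeat-masked sequence and open squares one partly in it. RAD21 replicate 1 had a peak at 4 of the sites and replicate 2 at 15, and site 9 of the Pitx1-Neurog1 locus ranked high in CTCF replicate 2 without any RAD21.

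Over the 37 sites, CTCF ranked better where RAD21 was present. The median rank share of CTCF at sites with RAD21 of TgN(38-40) limbs was 37.6% in replicate 1 and 42.6% in replicate 2 (13 and 15 sites), and at sites without it 57.1% and 68.3% (16 and 20 sites). Over all autosomal peaks the medians were 37.2% and 34.4% with RAD21 and 63.9% and 65.3% without it. The ranges overlapped widely, from 1.96% to 99.7% with RAD21 and from 6.06% to 88.4% without it in replicate 1. Site 9 of the Pitx1-Neurog1 locus, with CTCF rank shares of 31.1% and 4.40%, had no RAD21 in any list, while site 4 behind Tbx2, at 99.7% and 86.4%, had RAD21 in all 3 lists with rank shares of 84.4% and 42.3% in TgN(38-40) limbs and 25.2% in wild-type limbs.

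The sites were also grouped by the sequence under the motif. The reference marks repeated sequence in lower case, and this mask was looked up after the motifs had been seen. Of the 18 sites whose motif lay wholly outside the mask, 12 had RAD21 in TgN(38-40) limbs and 15 in wild-type limbs, beside 57.4% and 70.3% of such autosomal sites. Of the 6 sites whose motif lay wholly inside it, 1 had RAD21 in either group, site 8 between Tbx3 and Tbx5, beside 19.7% and 25.4% of such autosomal sites. RAD21 was thus rarer at masked than at unmasked motifs here and over all autosomal sites alike. A motif partly inside the mask was found at 2 sites, neither with RAD21. At 11 sites no motif lay within 50 bp of the summit that defined the site. Of these, 2 had RAD21 in TgN(38-40) limbs and 3 in wild-type limbs, beside 40.3% and 52.2% of such autosomal sites. Those with RAD21 in TgN(38-40) limbs were Tbx3-Tbx5 site 2 and Pitx1-Neurog1 site 6. Both had a motif within 50 bp of their RAD21 summit in replicate 2. Tbx3-Tbx5 site 5 and Pitx1-Neurog1 site 10, without RAD21, had a motif near the summit of CTCF replicate 1.

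The other 5 masked motifs all held the core CCAGAAGAGGGC, and none of these 5 sites had a RAD21 peak in any list. Of these, 4 are printed above as nearest sites of Tbx3, Tbx4 and Pitx1, and the remaining one lies between Tbx3 and Tbx5, 62447 bp beyond the end of Tbx3.
Tbx3-Tbx5 site 9, minus strand, chr5:119747190-119747208: tgaagAGGCCAGAAGAGGGCGTCGggtct
The 19 bases of this motif equal those of site 1, although the sites lie on opposite sides of Tbx3. CTCF rank shares at the 5 sites ran from 17.3% to 72.8% in replicate 1 and from 32.3% to 94.4% in replicate 2. Tbx3-Tbx5 site 1 and Pitx1-Neurog1 site 1 were called in replicate 2 alone. Whether the missing RAD21 goes with the core or with the rank of CTCF was not tested. The core, searched on both strands at the place of the best motif match, stood in 1306 autosomal CTCF sites, 7.53% of those with a motif, and in 99.1% of these the motif was wholly masked. RAD21 overlapped 14.3% of the 1306 in TgN(38-40) limbs and 18.2% in wild-type limbs, so most CTCF sites with the core lacked RAD21 in the rest of the genome too. CTCF motifs of this kind are known from the rodent B2 family of short interspersed elements, but the mask does not name repeat families and the family of these 5 copies was not looked up.

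**Figure D4:**
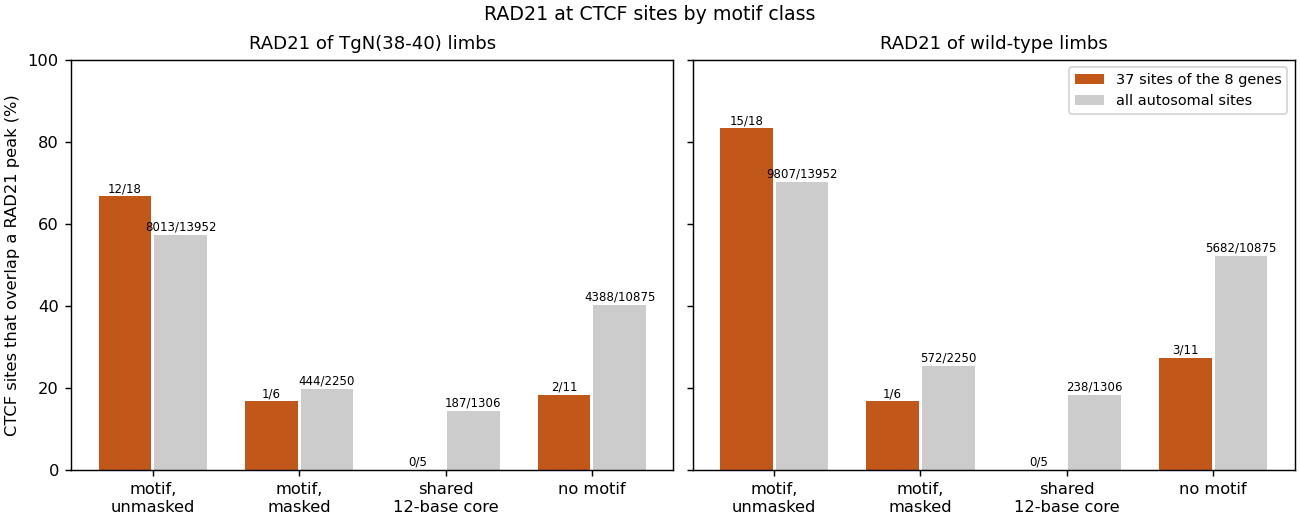
Percentage of CTCF sites that overlap a RAD21 peak of TgN(38-40) limbs (left panel) or of wild-type limbs (right panel), for the 37 sites of the 8 genes (orange) and for all autosomal CTCF sites (grey), split by whether the motif lay outside the repeat mask, inside it, held the shared 12-base core or was not found. Numbers above the bars give sites with RAD21 over all sites of the class. A motif counts as not found where none lay within 50 bp of the summit that defined the site. The core class is part of the masked class except for the few copies outside the mask, and 0 of 5 sites with the core had RAD21 in either panel.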

How the data were processed

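CTCF and RAD21 were mapped in TgN(38-40) limbs by ChIPmentation (2 biological replicates each) and RAD21 in wild-type limbs by ChIP-seq (1 library). Per the labels, the submitters' processing notes name Bowtie2 2.3.4.1 among the aligners, cutadapt 1.16 for trimming and MACS2 2.1.1.20160309, with which the authors called peaks per replicate. The control given to MACS2 was not given in the sources used here. The deposited narrowPeak lists hold each peak's fold enrichment (a ratio over background), −log10 p-value, −log10 q-value and summit offset. There were 5 lists on mm10, which gave the main values, and 4 on a genome with the insertion, used as an alternative. Per the paper, all reads were kept on that genome, and those in duplicated sequences were placed at random. The 4 lists therefore differ from the mm10 lists in the reads kept as well as in the genome. No peak list belongs to either total input, so these were left out.

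Peaks of an antibody's replicates that overlapped by at least 1 bp were merged into sites, with the summit of the peak that ranked best. A flanking site had to lie wholly outside the gene body, and its distance was taken from the gene's end to the summit, up to 500 kb. Genes came from GENCODE M21 and sequence from GRCm38.p6, whose chromosome lengths equal those of mm10. The 19 bp motif was learned from 2000 CTCF peaks of replicate 2, after leaving out the 100 strongest, on autosomes without any of the 8 genes. It was searched within 50 bp of a summit, at a score reached by 5% of flanking sequences. On simulated sequence, the search recovered position and strand of 99.5% of 600 planted motifs.

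Named genes were the 8 members and genes that hold or neighbour their sites, and of 13 other limb genes those with CTCF, of which 1 is not reported here. The members and lists were chosen with earlier results of these data known. Alternatives were the window, the −log10 q minimum, each replicate left out, the insertion genome, sites of both replicates, overlap rules, a shorter wild-type list, the motif threshold, the summit searched and the ranking. Python 3.11.15, numpy 2.4.6, pandas 2.3.3, pysam 0.24.0 and samtools 1.23.1 were used.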

Additional observations from a re-analysis of the deposited data

How the results depend on the processing

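The 3 of 8 genes with CTCF within 5 kb became 6 with a window of 10 kb, where Tbx4 and Tbx5 alone had none, 1 within 5 kb of the gene start and 1 at −log10 q of at least 10. Leaving out a replicate gave 2 to 3. The share over all genes was computed for the main setting alone. For RAD21 of TgN(38-40) limbs the 3 genes became 1 around the gene start and 1 to 3 with a replicate left out, 1 without replicate 2. At −log10 q of at least 10, CTCF sites fell to 5 in the Tbx3-Tbx5 interval and 6 in the Pitx1-Neurog1 interval, and RAD21 overlapped 9 of the then 22 sites in TgN(38-40) limbs and 12 in wild-type limbs. Sites called in both replicates numbered 7 in the Tbx3-Tbx5 interval. With a replicate left out, the Tbx3-Tbx5 interval held 9 to 10 sites, the Tbx2-Tbx4 interval 5 and the Pitx1-Neurog1 interval 9 to 12. RAD21 of TgN(38-40) limbs overlapped 4 to 15 sites, 4 of 31 without replicate 2. Genes with convergent nearest motifs numbered 1 to 2 with a replicate left out, 1 without replicate 2, and 3 at −log10 q of at least 5. The motif searched at the summit of either replicate, an alternative chosen after seeing the data, was found at 29 sites and left 2 convergent genes. No count of genes or sites reached 0 in any alternative run. The cause of these changes was not tested.

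Of the 16 nearest CTCF distances, that before Tbx3 was 96531 bp on the insertion genome. With sites of both replicates alone, the distance was 455544 bp before Tbx3, 65505 bp before Tbx5, 156223 bp beyond Pitx1, 15679 bp before H2afy and 52787 bp beyond Neurog1. Ranked by −log10 p instead of fold, 9 of the 62 peaks at sites called in both replicates of an antibody moved by more than the spread between replicates, among them CTCF peaks at sites 2 and 4 behind Tbx2, and this ranking was not run on the wild-type list. No paired analysis was possible because the results come from no test, and the replicate numbers stand only in peak lists of separate antibodies. Read numbers are unknown, so a missing peak means only that none was called.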
